A study of Mus musculus with 50 samples.

Results

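Tracheal perfusate, RNA flushed from the mouse trachea, was compared between IL-13 animals that carried 1 working Stat6 allele (Stat6+/-, 5 arrays) and IL-13 animals that carried none (Stat6-/-, 5 arrays). These 10 of the 50 arrays of the series were chosen by their titles, which name the tissue, IL-13 and the Stat6 genotype, and by no measured value. The other perfusate groups of 5 arrays each were IL-13 Stat6-/- marked Epi+, ovalbumin (OVA) and saline (PBS), and whole lung was measured in groups of the same names. IL-13 was common to both groups compared. The sources used here do not give how IL-13 reached the airway, the genotype of the OVA and PBS animals, the strain, age or sex, or that each array was a separate animal. The p-values below therefore measure only the spread between these arrays. No group held either Stat6 genotype without IL-13, so a genotype difference that exists without IL-13 cannot be told apart from a difference in the response to IL-13.

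IL-13 is a cytokine of type 2 immunity that binds a receptor shared with IL-4 and acts through Janus kinases and the transcription factor Stat6. In the airway it is known for turning secretory cells into mucous cells, changing the ion and fluid balance of the airway surface, and drawing in eosinophils. Stat6 is phosphorylated at the receptor, forms a dimer and binds palindromic DNA sites, and Stat6-deficient mice lack most of these responses.

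Each value was the log2 ratio of a perfusate sample to a reference RNA, set to a median of 0 on each array. A difference below is Stat6+/- minus Stat6-/- in log2 units, given with its standard error from limma, a group mean has the SD over 5 arrays, and per-array values are listed by reference preparation, 1.1 to 1.5, each of which served 1 array of every perfusate group. A probe was called when its Benjamini-Hochberg adjusted p was under 0.05, and "rose" and "fell" are used only of called genes, for higher and lower in Stat6+/-. RNA was of bulk samples, so fewer cells of a type and less RNA per cell cannot be told apart. A ratio to a reference gives no level per cell, so the labelled tissue could be checked only through differences. Of 40 defining markers of the cells that a perfusate could hold, 33 were measured. None rose, 1 fell (the surfactant gene Sftpa1, described below) and 32 were not called, beside 3.14% of all probes called. The summed values of the 7 airway epithelial markers (Epcam, Cdh1, Krt8, Krt18, Krt19, Scgb1a1 and Foxj1) overlapped between the groups. They ran from -0.90 to 5.07 in Stat6+/- and from -2.83 to 1.84 in Stat6-/- arrays. Within preparations, Epcam and Krt18 were higher in Stat6+/- in 5 of 5. Cdh1, Krt8, Krt19 and Foxj1 were higher in 4 of 5 and Scgb1a1 in 2 of 5. The sums of the other 11 cell types overlapped between the groups too, and a difference in cell content was not tested.

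The 10 arrays held 18296 to 18655 spots with a value, correlated with each other at -0.06 to 0.52 over all probes, and had deposited medians of -0.72 to -0.05. Il13 averaged 1.77 ± 0.44 in Stat6+/-, 2.76 ± 0.55 in Stat6-/- and 0.04 ± 0.34 in PBS perfusate, from which the ratio was taken, as likely, to run sample over reference. Its difference was -0.99 ± 0.21 (limma, adjusted p = 0.012), and its part in the other differences was not tested. That call was lost without the low Y-linked arrays described next (-0.83, adjusted p = 0.226), with those arrays marked by a covariate (0.27), without centring (0.142) and in a fit of just the 2 groups (0.0995). The Stat6 probe did not separate the genotypes, at -0.10 ± 0.14 (adjusted p = 0.851), and its position relative to the disruption was not known. Stat6-/- replicates 10, 11 and 12 had a Y-linked Eif2s3y probe under -1.5, as no other perfusate array did. That probe was itself called at 1.72 ± 0.46 (adjusted p = 0.0494), while the other Eif2s3y probe differed by -0.01 ± 0.50. Xist differed by -2.35 ± 0.68 (adjusted p = 0.0733). Of 7 measured genes of the sex-linked list, each read by 1 probe, none was called. Of these, 2 had a positive difference, of at most 0.58, and Xist had the largest negative one, higher in Stat6-/-. The marking of the 3 arrays was made from 1 probe, and a difference in sex between the groups was not tested. Calls of the genes described below are also given without these 3 arrays, called the low Y-linked arrays, which leaves 2 Stat6-/- arrays.

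In all, 529 of 16873 probes (3.14%) were called, 188 higher (1.11%) and 341 lower (2.02%), and the median difference of all probes was -0.02. Each count of called list members below is to be read beside these shares, and no list was tested as a set. The called probes had median differences of 1.04 and -0.94. A rise over 1 log2 unit was seen for 98 and a fall over 1 for 147. The groups did not overlap for 84 of the 188 higher and 184 of the 341 lower probes, and over all 16873 probes, called or not, Stat6+/- lay wholly above Stat6-/- for 162 and wholly below for 243. Of called probes with a value in every preparation, 178 of 186 higher and 327 of 340 lower ones had the same sign in all 5 preparations. They were called by a fit to these same arrays and preparations, so this agreement follows largely from the calling. The PBS mean lay nearer to Stat6-/- than to Stat6+/- for 159 of the higher and 286 of the lower probes. The same was not counted over all probes, so these counts have no background beside them. In the fit lacking the low Y-linked arrays, 183 probes were called, 163 of them among the 529, and with those arrays marked by a covariate 163 were called, 150 of them among the 529. The count also depended on the other groups in the fit and on the centring: 69 probes were called when just these 2 groups were fitted with the preparation block, 35 without that block, and 128 without centring. Under all 17 fits that left out an array, a preparation or the low Y-linked arrays, or marked the latter, 103 probes (19.5% of the calls) stayed called, 28 higher and 75 lower.

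**Figure D1:**
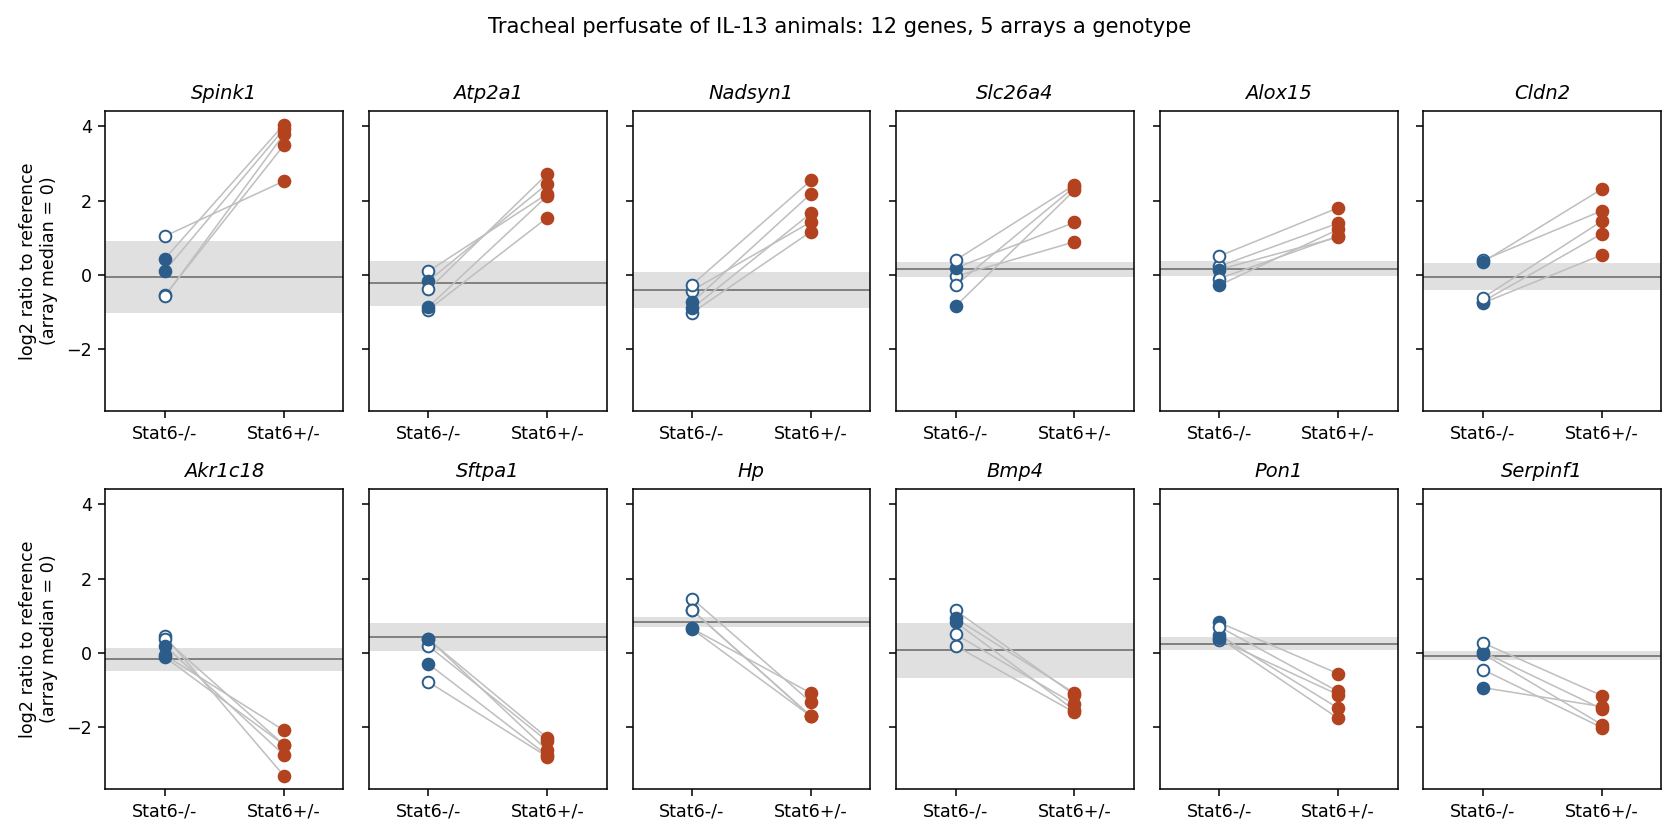
Log2 ratio to the reference (vertical axis, array median at 0) of 12 genes in the 5 Stat6-/- and 5 Stat6+/- perfusate arrays. Lines join arrays of 1 reference preparation, open circles mark the 3 low Y-linked arrays, and the grey line and band give the PBS mean and its SD over 5 arrays. The upper 6 genes were higher and the lower 6 lower in all 5 Stat6+/- arrays than in any Stat6-/- array, and the Stat6-/- arrays lay near the PBS band for most of them.

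Genes of steroid and lipid handling gave the largest named fall and several of the most stable calls. Akr1c18, the hydroxysteroid dehydrogenase that inactivates progesterone, stood at -2.09, -2.48, -3.32, -2.48 and -2.75 in Stat6+/- arrays and at -0.07, -0.12, 0.45, 0.37 and 0.19 in Stat6-/- arrays. All 5 Stat6+/- arrays lay below all Stat6-/- arrays, and the latter all lay above the PBS mean of -0.18 ± 0.28. The difference was -2.79 ± 0.21 (6.92-fold lower, adjusted p = 4.57e-07), and no other of the 13 measured genes of steroid, retinoid and aldo-keto metabolism was called. Pon1, a lipid-hydrolysing paraoxonase that club cells also express, was -1.13, -0.57, -1.5, -1.05 and -1.77 against 0.35, 0.82, 0.48, 0.70 and 0.40, without overlap. It fell by 1.75 ± 0.19 (adjusted p = 2.28e-05). Cd36, a receptor for fatty acids and oxidised lipoproteins, was 0.05, 0.11, -1.72, -2.01 and -2.04 against 1.26, 1.45, 0.07, 0.51 and 0.16. The Stat6+/- array at 0.11 lay inside the Stat6-/- range, but it was the lower array of its own preparation, and Cd36 fell by 1.81 ± 0.28 (adjusted p = 0.000675). Abcg1, which exports cholesterol, rose by 0.67 ± 0.15 with no overlap, and Ch25h, which makes an oxysterol, fell by 0.72 ± 0.19 with overlap. Of 18 measured genes of lipid and cholesterol handling 1 rose and 3 fell, beside 1.11% and 2.02% of all probes, with a median of -0.13. Sqle, Idi1, Srebf1 and Fasn, of cholesterol and fatty acid synthesis, had differences of 0.09 ± 0.19, 0.65 ± 0.36, -0.07 ± 0.14 and 0.20 ± 0.18 and were not called. After the low Y-linked arrays were removed, Akr1c18, Pon1 and Cd36 stayed called, and Abcg1 (adjusted p = 0.18) and Ch25h (0.34) did not.

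Enzymes of eicosanoids, lipid mediators made from arachidonic acid, moved both ways: of 18 measured, 3 rose and 1 fell, with a median of 0.15. Over all probes 1.11% rose and 2.02% fell. Alox15, a lipoxygenase that IL-4 and IL-13 are known to induce, was 1.39, 1.01, 1.04, 1.80 and 1.22 in Stat6+/- against 0.23, 0.14, -0.11, 0.50 and -0.29 in Stat6-/- arrays. The groups did not overlap, the PBS mean was 0.16 ± 0.18, and Alox15 rose by 1.20 ± 0.18 (adjusted p = 0.000617). Hpgds, which makes prostaglandin D, lay between 1.67 and 2.04 on the Stat6+/- arrays. On the Stat6-/- arrays it was -0.03, 1.23, -0.20, -0.35 and -0.33, so that replicate 13 stood apart without reaching the other group. Hpgd, which breaks prostaglandins down, was -1.93, -0.46, -1.22, -1.99 and -2.57 against 0.39, 0.16, 0.14, 0.16 and -0.24. All Stat6+/- arrays lay below all Stat6-/- arrays, and Hpgd fell by 1.76 ± 0.26 (adjusted p = 0.000539). Pla2g10, a secreted phospholipase that frees the arachidonic acid, rose by 2.01 ± 0.37 (adjusted p = 0.00336), from a Stat6-/- range of -1.20 to 0.63 to a Stat6+/- range of 0.71 to 2.28. The other phospholipases Pla2g4a, Pla2g7 and Pla2g5 had differences of 0.53 ± 0.22, 0.26 ± 0.42 and 0.51 ± 0.61 and were not called. Without the low Y-linked arrays Alox15 stayed called (adjusted p = 0.014), and Hpgds (0.15), Hpgd (0.068) and Pla2g10 (0.22) did not.

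The secreted host defence proteins Sftpa1, Hp, Dmbt1 and Cfb fell. Sftpa1, the collectin surfactant protein A that coats microbes, was -2.39, -2.77, -2.81, -2.64 and -2.30 in Stat6+/- and 0.18, -0.30, -0.79, 0.38 and 0.36 in Stat6-/- arrays, against a PBS mean of 0.42 ± 0.34. The Stat6+/- arrays formed a narrow group more than 1 log2 unit below the lowest Stat6-/- array, and the difference was -2.55 ± 0.25 (5.84-fold lower, adjusted p = 1.63e-05). None of the other 11 measured genes of surfactant and alveolar type 2 cells was called. Sftpc, which marks alveolar type 2 cells, differed by 0.79 ± 0.28 and Sftpd by -0.82 ± 0.23. Hp, which binds free haemoglobin, was -1.33, -1.09, -1.72, -1.72 and -1.72 against 1.46, 0.66, 1.15, 1.15 and 0.64. All Stat6-/- arrays were above and all Stat6+/- arrays below the array median, with the PBS mean at 0.84 ± 0.11, and Hp fell by 2.53 ± 0.19 (adjusted p = 4.57e-07). Dmbt1, a secreted scavenger receptor that aggregates bacteria, fell by 1.76 ± 0.28 with no overlap. Hp and Dmbt1 were the 2 called among 18 acute phase and antimicrobial proteins, of which Saa3 and Ltf stood at 0.44 ± 0.59 and -0.75 ± 0.23. Among 24 complement and coagulation genes 2 rose, the plasminogen activation genes Plat and Plaur given below, and 1 fell. The latter was Cfb, of the alternative complement pathway, at -1.20 ± 0.27 with overlap, while C4b and C1qa were not called at 0.47 ± 0.25 and 0.01 ± 0.34. Sftpa1, Hp and Dmbt1 stayed called without the low Y-linked arrays (adjusted p = 0.0014, 0.00058 and 0.016), and Cfb did not (0.44).

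Among 13 measured genes of immunoglobulin transport and epithelial lectins, 1 rose and 3 fell, beside 1.11% and 2.02% of all probes. Gp2, a receptor for bacterial pili on mucosal surfaces, was 1.53, 2.30, 2.31, 2.73 and 2.52 in Stat6+/- and -0.02, 0.36, 0.07, 0.99 and 0.55 in Stat6-/- arrays. The groups did not overlap, and Gp2 rose by 1.89 ± 0.23 (adjusted p = 8.54e-05). Besides Dmbt1, which is on this list too, uromodulin (Umod) fell by 0.71 ± 0.13 and the neonatal Fc receptor Fcgrt by 0.79 ± 0.18. Pigr, which carries immunoglobulin A across the epithelium, was not called at 0.04 ± 0.27. Gp2 and Dmbt1 stayed called without the low Y-linked arrays, and Umod (adjusted p = 0.11) and Fcgrt (0.18) did not.

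Among 25 measured chemokines 3 fell and none rose, beside 2.02% and 1.11% of all probes, and the median was 0.07. Ccl20, which attracts dendritic cells and lymphocytes through Ccr6, was -2.79, -2.45, -2.47, -2.06 and -2.81 in Stat6+/- and -1.40, -0.25, -0.83, -0.51 and 0.39 in Stat6-/- arrays. The ranges were apart, the PBS mean was -1.05 ± 0.46, and Ccl20 fell by 2.00 ± 0.24 (adjusted p = 9.01e-05). Cxcl1, a neutrophil chemokine, was -2.70, -3.67, -2.50, -0.90 and -1.74 against -1.59, 0.67, 1.32, 0.76 and -0.38. It was lower in Stat6+/- in each preparation, but Stat6-/- replicate 11 at -1.59 lay inside the Stat6+/- range, and the PBS mean of -1.01 ± 1.07 lay between the groups. Cxcl1 fell by 2.46 ± 0.53 (adjusted p = 0.0109), and Cxcl2 and Cxcl5, which share its receptor, were not called at -1.04 ± 0.39 and -1.72 ± 0.62. Ccl19, a ligand of Ccr7, fell by 0.87 ± 0.21 with overlap. With the low Y-linked arrays removed, Ccl20 (adjusted p = 0.00058) and Ccl19 (0.031) stayed called, and Cxcl1 kept its size at -2.50 but not its call (0.084).

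Of 30 cytokines and growth factors 2 fell, beside 2.02% of all probes. Bmp4, a morphogen of the transforming growth factor family, was -1.61, -1.55, -1.39, -1.14 and -1.09 in Stat6+/- and 0.19, 0.83, 0.50, 1.14 and 0.93 in Stat6-/- arrays. Every Stat6+/- array lay below -1 and every Stat6-/- array above 0, and Bmp4 fell by 2.07 ± 0.23 (adjusted p = 2.98e-05). Tnf fell by 0.92 ± 0.23 without overlap (adjusted p = 0.0291), while Il1a and Il6 were not called at -0.47 ± 0.26 and -0.28 ± 0.34. Among 23 receptors only Il17rb, a chain of the receptor for IL-25, fell, by 0.98 ± 0.24 with overlap. The IL-13 receptor chains Il13ra1 and Il13ra2 were not called at -0.43 ± 0.30 and -0.43 ± 0.40, nor was any of 18 genes of Jak-Stat signalling and its inhibitors, whose median was 0.09. Bmp4 and Tnf stayed called without the low Y-linked arrays, and Il17rb did not (adjusted p = 0.20).

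Transporters of the airway surface were called in both directions, beside 1.11% of all probes higher and 2.02% lower. Slc26a4, the chloride and bicarbonate exchanger pendrin, was 0.89, 1.41, 2.43, 2.37 and 2.28 in Stat6+/- and -0.04, 0.19, 0.39, -0.28 and -0.85 in Stat6-/- arrays. Stat6+/- arrays were all above the Stat6-/- arrays, and Slc26a4 rose by 1.99 ± 0.28 (adjusted p = 0.000334). Carbonic anhydrase Car2, which makes bicarbonate, was 1.38, 1.57, 1.24, 1.46 and 0.62 against 0.37, 0.11, 0.19, 0.23 and -0.38. It rose by 1.15 ± 0.22 with no overlap, and the proton pump subunit Atp6v1b1 fell by 0.95 ± 0.17. Among the rest of that list of 16, the chloride channel Cftr and the transporters Slc26a3 and Slc4a4 were not called at 0.06 ± 0.35, 0.39 ± 0.58 and 0.05 ± 0.15.

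Scnn1b and Scnn1g, subunits of the epithelial sodium channel, were the 2 called genes of 18 for sodium, potassium and water transport. Scnn1b was -1.69, -1.59, -2.29, -1.94 and -1.78 in Stat6+/- and 0.26, -0.61, -1.67, 0.71 and -0.08 in Stat6-/- arrays. Scnn1g was -2.23, -2.13, -2.55, -1.32 and -1.92 against 0.60, -0.90, -1.33, 0.14 and -0.85. For both it was Stat6-/- replicate 10 that reached the Stat6+/- range. They fell by 1.58 ± 0.32 and 1.56 ± 0.32, while the third subunit, Scnn1a, was not called at -0.45 ± 0.20. Without the low Y-linked arrays, among them replicate 10, Scnn1b stayed called (adjusted p = 0.035) and Scnn1g did not (0.23). Kcnk2, a background potassium channel outside the lists, fell by 2.04 ± 0.37 (adjusted p = 0.00336). Stat6-/- replicate 10 again stood low for it, at -1.24 against 0.51 to 0.93 on the other 4 Stat6-/- arrays. In the fit lacking the low Y-linked arrays, Slc26a4, Car2 and Kcnk2 stayed called and Atp6v1b1 did not (adjusted p = 0.074).

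Atp2a1, the calcium pump best known from fast muscle, was 2.18, 2.45, 1.54, 2.72 and 2.13 in Stat6+/- and 0.09, -0.17, -0.94, -0.40 and -0.87 in Stat6-/- arrays. Scin, which severs actin filaments during exocytosis, was 1.93, 3.10, 2.19, 1.32 and 1.49 against 0.10, 0.46, -0.26, -0.31 and -0.07. Neither gene's groups overlapped, and they rose by 2.66 ± 0.27 (6.33-fold, adjusted p = 1.63e-05) and 2.02 ± 0.23 (adjusted p = 4.51e-05). They were the 2 called of 18 genes of calcium pumps, sensors and actin severing, and the related pumps Atp2a2, Atp2a3 and Atp2b1 were not called at 0.22 ± 0.23, 0.11 ± 0.60 and 0.24 ± 0.28. Clca3b, of the calcium-activated chloride channel regulator family, rose by 2.80 ± 0.27, from a Stat6-/- range of -2.36 to -1.11 to a Stat6+/- range of 0.61 to 1.78. All 3 genes stayed called without the low Y-linked arrays. Of 22 carriers of amino acids, sugars and other solutes, Slc3a2, the heavy chain that several amino acid transporters share, fell by 1.23 ± 0.27 without overlap, and it too stayed called (adjusted p = 0.047).

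Nadsyn1 and Nmrk2, at different steps of NAD synthesis, rose. Nadsyn1, which makes NAD in the last step of synthesis from nicotinic acid, was 1.43, 2.19, 1.16, 2.54 and 1.66 in Stat6+/- and -0.43, -0.75, -1.03, -0.27 and -0.91 in Stat6-/- arrays. Nmrk2, a kinase that feeds nicotinamide riboside into NAD, was 2.70, 1.67, 1.02, 1.47 and 2.48 against -0.54, 0.40, -0.69, 0.13 and 0.42. Both were higher in all Stat6+/- arrays than in any Stat6-/- array, with differences of 2.47 ± 0.27 (5.55-fold, adjusted p = 3.23e-05) and 1.92 ± 0.32 (adjusted p = 0.00207). Nadsyn1 was the 1 called of 18 genes of amine, tryptophan, arginine and NAD metabolism, of which Arg1, Arg2, Nos2 and Nos3, enzymes that use arginine, stood at -0.47 ± 0.22, 0.12 ± 0.33, -0.05 ± 0.35 and -0.61 ± 0.30. Without the low Y-linked arrays Nadsyn1 stayed called (adjusted p = 0.0012) and Nmrk2 did not (0.073).

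Of 20 serpins and other protease inhibitors, 2 were called higher and 2 lower, beside 1.11% and 2.02% of all probes. Spink1, a secreted trypsin inhibitor, was 2.52, 3.93, 3.49, 3.79 and 4.05 in Stat6+/- and 1.04, 0.11, -0.56, -0.59 and 0.43 in Stat6-/- arrays. The lowest Stat6+/- array was more than 1 log2 unit above the highest Stat6-/- array, and Spink1 rose by 3.47 ± 0.43 (11.1-fold, adjusted p = 9.09e-05). Serpinb11 rose by 1.36 ± 0.29 without overlap. Serpinf1, a secreted serpin that restrains blood vessel growth, was -1.51, -1.45, -2.02, -1.16 and -1.94 against 0.02, -0.94, -0.45, 0.27 and -0.03, and fell by 1.39 ± 0.18 (adjusted p = 0.00015). Its groups did not overlap, whereas those of the metalloprotease inhibitor Timp3, which fell by 1.14 ± 0.29, did. Of plasminogen activation, Plat, the tissue activator, was 1.50, 1.40, 1.34, 3.16 and 2.29 against -0.42, -0.09, -0.25, 0.66 and 0.02, and the urokinase receptor Plaur was 0.61, 0.27, 0.79, 2.82 and 2.17 against -0.64, -0.75, 0.06, 0.43 and 0.32. Both were highest in Stat6+/- replicates 6 and 8, and they rose by 1.95 ± 0.21 (adjusted p = 2.5e-05) and 1.45 ± 0.28 (adjusted p = 0.00529). Of 30 proteases, the sheddase Adam10 rose by 0.59 ± 0.14 with overlap and the aspartic protease cathepsin E (Ctse) fell by 1.22 ± 0.24 without it. Another Adam10 probe was not called at -0.24, so that the probes of that gene disagree. Spink1, Serpinf1, Plat and Ctse stayed called without the low Y-linked arrays, and Serpinb11 (adjusted p = 0.22), Timp3 (0.079), Plaur (0.097) and Adam10 (0.19) did not.

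**Figure D2:**
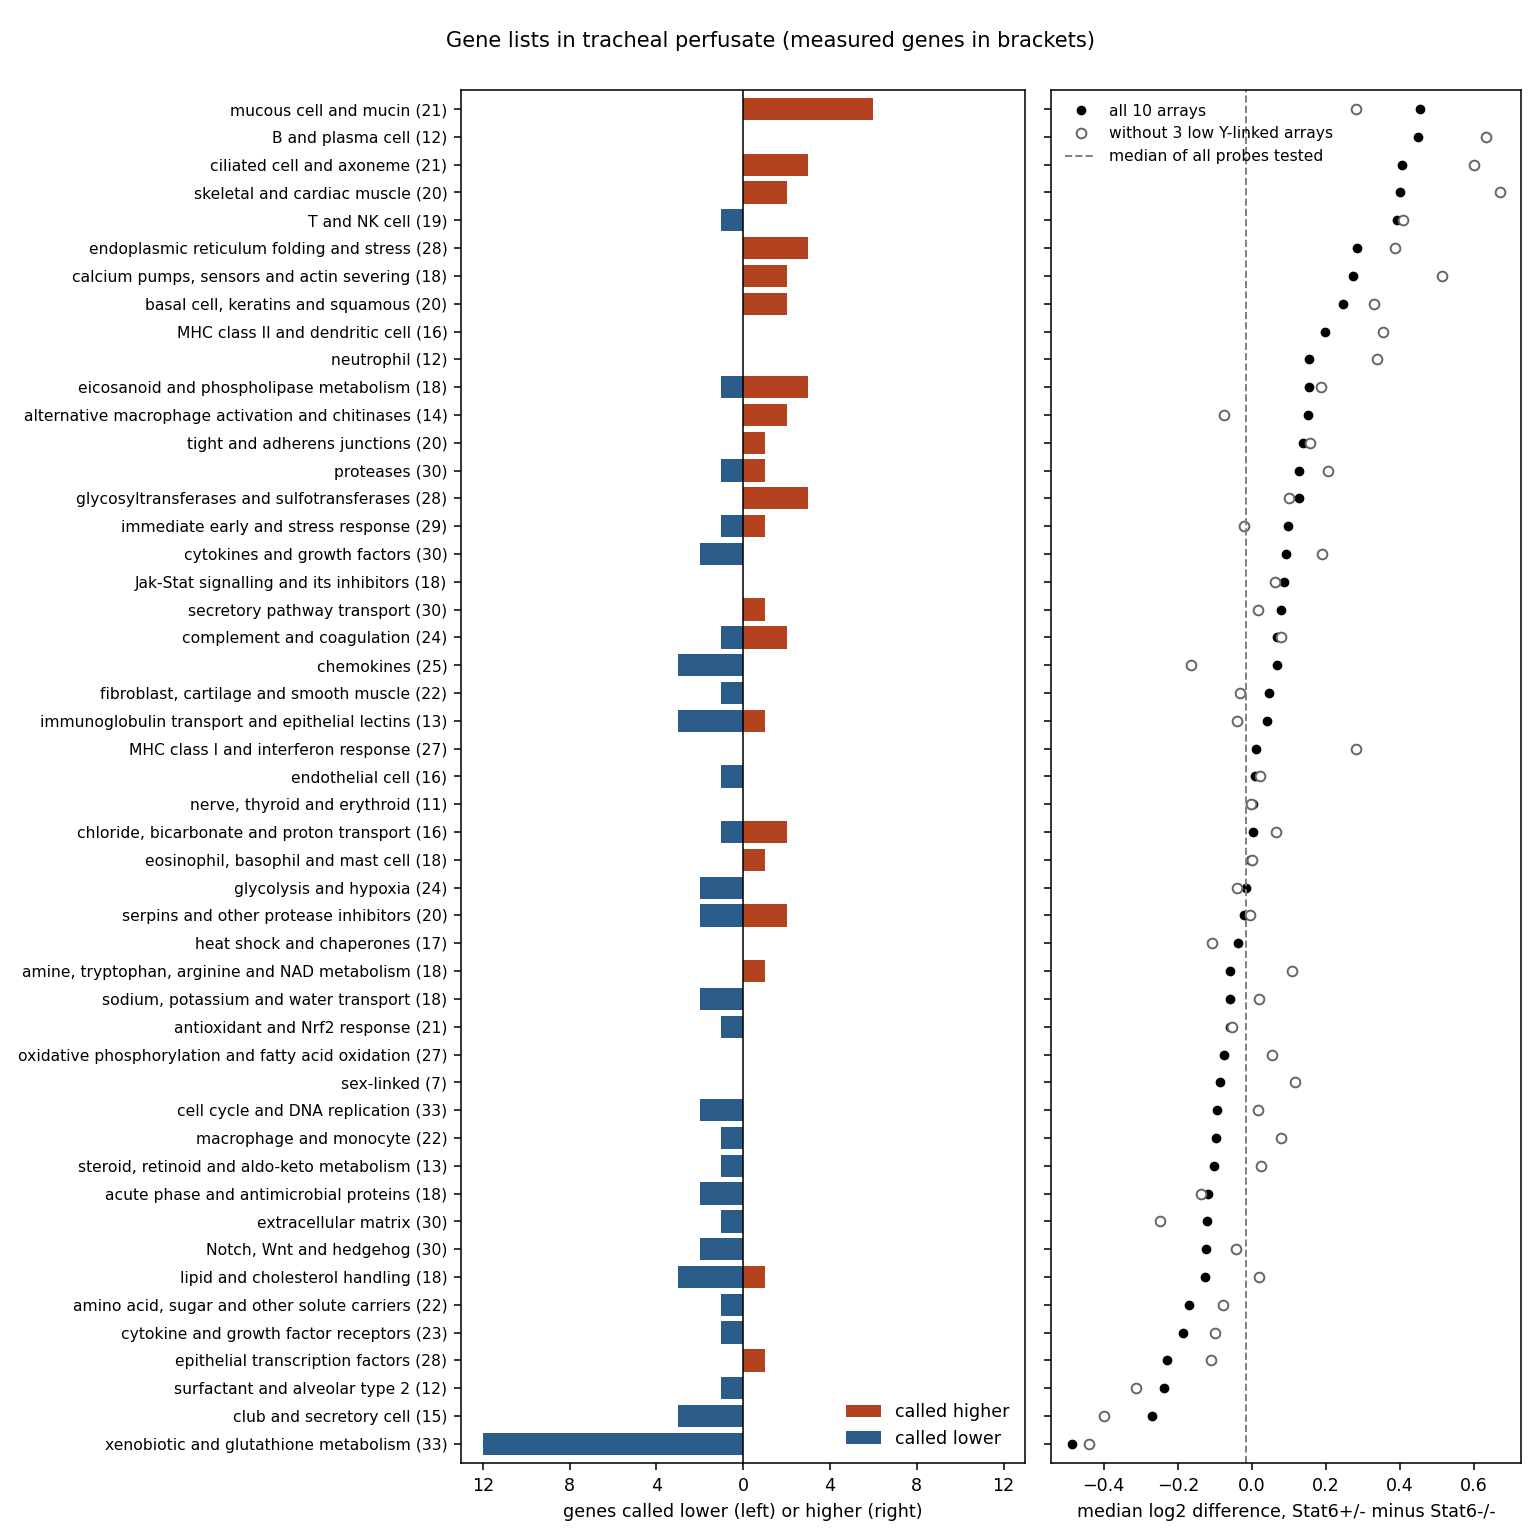
Left, genes of each list called lower (to the left) or higher (to the right) in Stat6+/- perfusate, with the number of measured genes in brackets. Right, the list's median log2 difference with all arrays (filled) and without the 3 low Y-linked arrays (open), beside the median of all probes tested (dashed), and the lists are ordered by the filled point. The mucous list has the most higher calls (6 of 21) and the xenobiotic list the most lower calls (12 of 33), and most other lists have 3 calls or fewer.

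Lists of airway epithelial cell types had medians on either side of that of all probes, of which 1.11% rose and 2.02% fell. Of 21 genes of ciliated cells and their axoneme 3 rose, none fell and 18 had a positive difference, with a median of 0.40. Ift172, of the transport along cilia, was 1.12, 0.93, 0.93, 0.71 and 0.97 in Stat6+/- and 0.62, 0.13, -0.35, -0.14 and -0.16 in Stat6-/- arrays. It rose by 0.91 ± 0.14 without overlap (adjusted p = 0.0007), and the PBS mean was -0.15 ± 0.09. Spag16, of the central apparatus of the axoneme, rose by 1.17 ± 0.27, and Ccdc39, which sets the spacing of axonemal parts, by 0.77 ± 0.20, both with overlap. Foxj1, the transcription factor of ciliated cells, was not called at 0.69 ± 0.26, nor were the dynein heavy chains Dnah5 and Dnah11 at 0.56 ± 0.21 and -0.34 ± 0.27. When the low Y-linked arrays were left out, the list again had 3 rises and a median of 0.60. Ift172 and Ccdc39 were among those 3 and Spag16 was not (adjusted p = 0.17), and another Spag16 probe was not called at 0.75.

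Among 15 club and secretory cell genes 3 fell and 1 had a positive difference, with a median of -0.27. Cckar, a receptor for cholecystokinin, was -3.14, -1.71, -1.36, -3.15 and -3.56 in Stat6+/- and -0.90, -0.61, -0.55, -0.11 and -0.50 in Stat6-/- arrays, with no overlap. It fell by 2.05 ± 0.29 (adjusted p = 0.000357), Pon1 fell as given above, and Selenbp1 fell by 1.38 ± 0.33 without overlap. The secretoglobins Scgb1a1, Scgb3a1 and Scgb3a2, the most abundant products of these cells, were not called at -0.28 ± 0.22, -0.27 ± 0.17 and -0.61 ± 0.24. With the low Y-linked arrays removed, Cckar and Pon1 stayed called and Selenbp1 did not (adjusted p = 0.28), with a list median of -0.40.

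Of 20 genes of basal cells, keratins and squamous cells 2 rose, beside 1.11% of all probes. They were the stress keratin Krt6a, by 1.22 ± 0.33, and the cornified envelope protein Sprr2a1, by 1.28 ± 0.30, both with overlap. Neither was called without the low Y-linked arrays (adjusted p = 0.37 and 0.53). The basal keratins Krt5, Krt14 and Krt15 were not called at 0.15 ± 0.23, 0.59 ± 0.28 and 0.13 ± 0.23. Rptn, another protein of the cornified envelope and outside the lists, moved the other way. It was -2.35, -2.34, -2.04, -2.13 and -1.74 in Stat6+/- and 0.05, 0.60, -0.71, 0.26 and 0.20 in Stat6-/- arrays, and fell by 2.20 ± 0.29 (adjusted p = 0.000204). Among 20 genes of tight and adherens junctions Cldn2, a claudin that forms cation pores, was the 1 called. It was 1.10, 0.53, 1.44, 1.72 and 2.31 against -0.73, -0.77, -0.63, 0.39 and 0.34, without overlap, and rose by 1.70 ± 0.23 (adjusted p = 0.000253). Cldn1, Cldn3 and Cldn4 were not called at 0.01 ± 1.02, 0.21 ± 0.16 and 0.12 ± 0.20. Rptn and Cldn2 stayed called without the low Y-linked arrays. Among 28 epithelial transcription factors Elf3 rose by 0.87 ± 0.19 with overlap, 7 had a positive difference, and Foxa1, Foxa2, Nkx2-1 and Sox2 were not called at -0.48 ± 0.16, -0.57 ± 0.16, -0.05 ± 0.19 and -0.42 ± 0.24. Elf3 was not called without the low Y-linked arrays (adjusted p = 0.16).

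Notch1 and Notch2, receptors of the pathway that directs airway cells between secretory and ciliated fates, fell. Notch1 was 0.03, -0.11, -0.12, -0.02 and -0.41 in Stat6+/- and 0.33, 1.24, 1.15, 0.93 and 0.74 in Stat6-/- arrays. All Stat6+/- arrays lay below all Stat6-/- arrays, and Notch1 fell by 1.00 ± 0.20 (adjusted p = 0.00603). Notch2 was -1.19, -0.89, -0.70, -0.86 and -0.06 against -0.18, 0.13, 0.15, 1.02 and 0.35, and fell by 1.03 ± 0.22 (adjusted p = 0.0106). Stat6+/- replicate 8 reached the Stat6-/- range for Notch2. They were the 2 called of 30 genes of Notch, Wnt and hedgehog signalling, beside 3.14% of all probes. Notch3 and Notch4 were not called at 0.18 ± 0.19 and -0.28 ± 0.66. Without the low Y-linked arrays Notch1 stayed called (adjusted p = 0.0086) and Notch2 did not (0.23). The matrix-bound growth regulator Ccn2 was the 1 called of 30 extracellular matrix genes. It fell by 1.32 ± 0.29 with overlap and stayed called (adjusted p = 0.035), while the collagens Col1a1, Col1a2, Col3a1 and Col4a1 were not called at -0.21 ± 0.29, -0.37 ± 0.32, 0.11 ± 0.14 and 0.44 ± 0.27.

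A few genes of protein folding and of glycan building in the secretory pathway rose, by up to 1.09. Of 28 genes of folding and stress in the endoplasmic reticulum 23 had a positive difference, with a median of 0.28, and 3 rose. Manf, a secreted factor of that stress response, rose by 0.77 ± 0.19, the chaperone partner Dnajb9 by 0.76 ± 0.20 and the transcription factor Ddit3 by 0.68 ± 0.17, all with overlapping groups. The main chaperones Hspa5, Hsp90b1, Calr and Canx were not called at 0.30 ± 0.16, 0.65 ± 0.18, 0.45 ± 0.34 and 0.42 ± 0.15. Kdelr3, a receptor that returns chaperones to the endoplasmic reticulum, rose by 0.63 ± 0.14 as the 1 called of 30 genes of secretory transport. Of 28 glycosyltransferases and sulfotransferases 3 rose: Galnt7, which starts mucin-type glycans, by 0.85 ± 0.22, Gcnt1, which branches them, by 1.09 ± 0.25, and Uap1, which makes a sugar donor, by 0.69 ± 0.16. Galnt1, Galnt2, Galnt3 and Galnt4 were not called at 0.37 ± 0.16, 0.21 ± 0.18, 0.75 ± 0.23 and 0.24 ± 0.20, and another Gcnt1 probe was at -0.36. After the low Y-linked arrays were removed, none of these 7 genes was called, at adjusted p-values from 0.071 (Gcnt1) to 0.46 (Dnajb9), and the median of the folding list was 0.39.

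Mucous and xenobiotic genes are given mainly by count. Of 21 mucous cell genes 6 rose (Clca1, Muc5ac, Tff1, Spdef, Muc5b and Muc4) and none fell, with a median of 0.45. Among 33 xenobiotic and glutathione genes 12 fell and 0 rose, with a median of -0.48. Among the 12, Sult1a1, a sulfotransferase, was -1.96, -1.20, -1.91, -1.91 and -1.33 in Stat6+/- and -0.53, 0.12, 0.06, 0.78 and 0.16 in Stat6-/- arrays, without overlap. It fell by 1.78 ± 0.25 (adjusted p = 0.000285). Ephx1, which opens epoxides, fell by 1.16 ± 0.13 (adjusted p = 2.98e-05), with Stat6-/- replicate 13 at -0.63 against a highest Stat6+/- array of -0.57. Adh1, an alcohol dehydrogenase, fell by 1.48 ± 0.22 and Aldh3a1, an aldehyde dehydrogenase, by 1.29 ± 0.23. Outside that list, the sulfotransferase Sult1c2 was -2.53, -1.97, -2.82, -1.29 and -2.47 against -0.41, -1.47, -0.25, 0.54 and -0.57, with overlap through Stat6-/- replicate 13. The oestrogen sulfotransferase Sult1e1 was -3.04, -3.78, -5.43, -0.81 and -1.59 against -1.02, -0.47, -0.72, -0.51 and -0.18, a spread of over 4 log2 units within Stat6+/-. They fell by 1.79 ± 0.24 (adjusted p = 0.000238) and 2.35 ± 0.58 (adjusted p = 0.0288). When the low Y-linked arrays were left out, 2 of the 6 mucous and 6 of the 12 xenobiotic calls remained, Sult1a1 (adjusted p = 0.035) and Ephx1 (0.008) among them, and Sult1c2 (0.066), Sult1e1 (0.29), Adh1 (0.072) and Aldh3a1 (0.17) were not called.

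Promoter sequence was read for the genes that moved, because Stat6 binds palindromes of TTC and GAA. In RefSeq promoters of GRCm38.p6, 250 bases before to 50 after a start, TTC and GAA with 4 bases between, the spacing that Stat6 prefers, occurred in 5.30% of the genes that rose (7 of 132 with a promoter) and in 10.04% of those that fell (23 of 229). The share was 6.86% of all tested genes and 8.01% of all genes of the promoter table. With 3 bases between, the spacing of other Stat factors, the shares were 7.58%, 7.42%, 8.49% and 9.55%. The motif reads the same on both strands, so a single search covers both. A gene with several starts has more bases searched, and the mean number of starts was 1.24 for genes that rose, 1.42 for genes that fell and 1.27 for tested genes. Windows at the preferred spacing were listed only for matches wholly before the start and not for every chromosome, unlike the shares above. The named genes on that list were Sprr2a1 and Gcnt1, which rose, and Notch1, Obi1, Sult1a1 and Kcnk2, which fell. Other named genes may have a match too. The windows of 4 of them are given, to show how the match sits in genes that moved either way, with the matched bases in capitals. They are read on the gene's own strand, Sprr2a1 from chr3:92215606-92215665 (plus), Notch1 from chr2:26503880-26503939 (minus), Sult1a1 from chr7:126676424-126676483 (minus) and Kcnk2 from chr1:189344321-189344380 (minus).
Sprr2a1: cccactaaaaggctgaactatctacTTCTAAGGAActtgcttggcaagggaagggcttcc
Notch1: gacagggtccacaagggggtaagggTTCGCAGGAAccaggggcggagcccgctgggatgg
Sult1a1: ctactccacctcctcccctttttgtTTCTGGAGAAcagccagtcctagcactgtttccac
Kcnk2: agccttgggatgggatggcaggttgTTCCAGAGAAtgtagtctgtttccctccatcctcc
The matches begin 204, 92, 40 and 163 bases before the start of Sprr2a1, Notch1, Sult1a1 and Kcnk2. Kcnk2 has a further start with a match 177 bases before it. A match is a description of these letters and was not tested for binding.

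Genes of immune and stromal cells were called at 0 to 2 a list, beside 3.14% of all probes. Of 22 macrophage and monocyte genes Tyrobp, an adaptor of myeloid and NK cell receptors, fell by 0.67 ± 0.13 (adjusted p = 0.0049), with Stat6+/- replicate 7 at 0.04 and the other 4 between -0.71 and -0.54. Cd68, Adgre1, Itgam and Itgax were not called at -0.10 ± 0.13, -0.02 ± 0.19, 0.05 ± 0.35 and -0.07 ± 0.20. Of 19 T and NK cell genes Gzmb, a granule protease of killer cells, fell by 1.15 ± 0.20 while 15 had a positive difference and the median was 0.39. Cd3d, Cd3e and Cd3g were not called at 1.18 ± 0.41, -0.03 ± 0.15 and 0.99 ± 0.62. None of 12 B and plasma cell genes was called, with 10 positive and a median of 0.45. None of 12 neutrophil genes was called, with S100a8 at 0.86 ± 0.57 and S100a9 at 0.98 ± 0.55. Of 18 eosinophil, basophil and mast cell genes only Alox15 was called, and Epx and Prg2, granule proteins of eosinophils, stood at -0.03 ± 0.29 and 0.43 ± 0.29. Of 14 genes of alternative macrophage activation and chitinases Alox15 and the transcription factor Klf4 (1.20 ± 0.30) rose, and Retnla and Chia1 were not called at 1.60 ± 0.55 and 0.51 ± 0.24. Tyrobp (adjusted p = 0.11), Gzmb (0.21) and Klf4 (0.15) were not called without the low Y-linked arrays.

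Of 16 endothelial genes Ramp2, the partner of the adrenomedullin receptor, fell by 1.12 ± 0.24 without overlap, and of 22 fibroblast, cartilage and smooth muscle genes Pi16 fell by 0.55 ± 0.13. Of 20 genes of skeletal and cardiac muscle 18 had a positive difference, with a median of 0.40, and 2 rose. Myl4, an atrial myosin light chain, was 0.22, 0.86, 1.21, 0.97 and 0.71 in Stat6+/- against -0.17, -0.84, -0.54, 0.15 and -0.46, without overlap, and rose by 1.17 ± 0.24 (adjusted p = 0.00799). Tnnt2, cardiac troponin T, rose by 1.38 ± 0.31 with overlap, and Acta1, Actc1, Myh2 and Myh6 were not called at 0.01 ± 0.63, -0.12 ± 0.18, 0.12 ± 0.52 and 0.36 ± 0.75. Without the low Y-linked arrays Myl4 stayed called (adjusted p = 0.023), and Ramp2 (0.33), Pi16 (0.18) and Tnnt2 (0.23) did not.

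Genes of growth and basic metabolism were called at 0 to 2 a list, beside the same 3.14% of all probes. Of 33 genes of the cell cycle and DNA replication, Cdc6, which licenses replication origins, fell by 1.21 ± 0.23 and thymidine kinase Tk1 by 0.81 ± 0.15, while Mki67 and Top2a were not called at 0.75 ± 0.36 and 0.32 ± 0.32. Of 24 genes of glycolysis and hypoxia Epas1, a hypoxia-inducible transcription factor, fell by 0.91 ± 0.18 without overlap and the aldolase Aldoc by 0.76 ± 0.17. Catalase (Cat) was the 1 called of 21 antioxidant genes and fell by 0.92 ± 0.21. Among 29 immediate early and stress genes Klf4 rose and Gadd45b fell by 0.90 ± 0.20, and Fos, Fosb, Fosl1 and Fosl2 were not called at -0.12 ± 0.24, -0.15 ± 0.33, -0.14 ± 0.64 and 0.12 ± 0.31. In the fit lacking the low Y-linked arrays, none of the called genes of this paragraph was called, at adjusted p-values from 0.065 (Epas1) to 0.47 (Aldoc). No gene was called, with all arrays, among 17 of heat shock, 27 of oxidative phosphorylation and fatty acid oxidation, 16 of MHC class II and dendritic cells, 27 of MHC class I and the interferon response and 11 of nerve, thyroid and red cells, and these lists had medians of -0.04, -0.08, 0.20, 0.01 and 0.00. Without centring of the arrays the first 2 of these medians were 0.09 and 0.05.

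Several of the largest changes were in genes outside the lists. Meiob, known from meiotic recombination, was 2.07, 2.75, 2.06, 2.28 and 2.03 in Stat6+/- and 0.33, 0.73, -0.81, 0.59 and -0.02 in Stat6-/- arrays. No Stat6-/- array came within 1 log2 unit of the lowest Stat6+/- array, and Meiob rose by 2.07 ± 0.26 (adjusted p = 0.000118). Obi1, a ubiquitin ligase of replication origins, was -1.72, -1.12, -1.36, -1.03 and -1.33 against -0.14, 0.60, 1.17, 0.48 and 0.11, without overlap, and fell by 1.76 ± 0.20 (adjusted p = 3.39e-05). Another Obi1 probe was not called at -0.20. The membrane protein Tmem213 rose by 2.05 ± 0.45 and the otoconial protein Oc90 fell by 2.01 ± 0.48, both without overlap. The unnamed transcript 6030498E09Rik rose by 2.13 ± 0.44 without overlap and 2210407C18Rik by 2.06 ± 0.53 with it. Izumo1r, a membrane protein of the folate receptor family that eggs use to bind sperm, was 1.27, 1.03, 1.05, 3.88 and 1.36 against -0.99, -1.17, -0.36, -0.22 and -0.74. Its PBS mean of 2.42 ± 1.38 was above both groups, it rose by 2.41 ± 0.60, and its other probe was at -0.30. Meiob, Obi1 and Tmem213 stayed called without the low Y-linked arrays, and 6030498E09Rik (adjusted p = 0.11), 2210407C18Rik (0.30), Oc90 (0.39) and Izumo1r (0.21) did not.

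The named genes differed in how far their calls depended on single arrays. Of 105 named called genes, 65 stayed called whichever of the 10 arrays was left out and 40 did not. Called under all 17 fits that left out or marked arrays were Spink1, Clca3b, Atp2a1, Nadsyn1, Meiob, Scin, Slc26a4, Plat, Gp2, Clca1, Muc5ac, Car2, Alox15, Cldn2 and Ift172 among those that rose. Among those that fell they were Akr1c18, Sftpa1, Hp, Rptn, Bmp4, Cckar, Ccl20, Cd36, Sult1a1, Dmbt1, Obi1, Pon1, Aox1, Aox3, Serpinf1, Cyp4b1 and Ephx1. Slc3a2 was not called without Stat6+/- replicate 7 or Stat6-/- replicate 13, Abcg1 without Stat6+/- replicate 8, Ccn2 and Elf3 without Stat6+/- replicate 6, and Tmem213 without Stat6-/- replicate 14, with adjusted p-values of at most 0.0557. Cfb and Aldoc lost their calls with 2 of the single arrays, and Spag16, Tnnt2, Cat and Fcgrt with 3. Selenbp1, Sprr2a1, Kdelr3, Uap1, Adam10 and Gadd45b lost theirs with 4, and Gstt1, Gcnt1 and Aadac with 5. Ccl19, Tnf, Il17rb, Ddit3, Pi16, Oc90 and 2210407C18Rik lost theirs with 6, and Izumo1r, Sult1e1, Muc5b, Muc4, Ccdc39, Manf, Dnajb9, Timp3 and Klf4 with 7. Krt6a and Krtap17-1 lost theirs with 8, and Ch25h and Galnt7 with 9. The highest adjusted p of any of these fits was 0.173, for Krt6a.

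**Figure D3:**
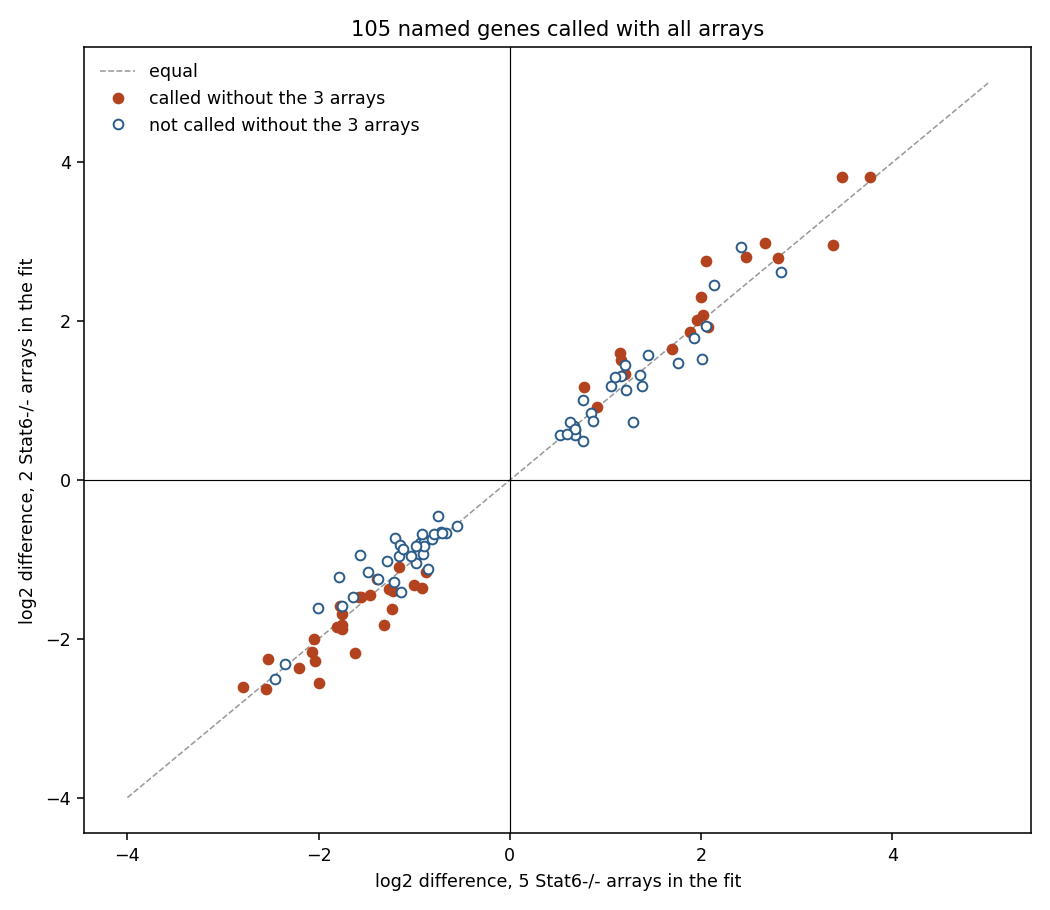
Log2 difference of 105 named called genes with all 5 Stat6-/- arrays (horizontal) and with the 2 that remain without the low Y-linked arrays (vertical). The points lie along the line of equal values and none changes sign, and 44 stay called (filled) while 61 do not (open). Both fits share all Stat6+/- arrays and the 2 remaining Stat6-/- arrays. The genes were chosen as called with all arrays, so the agreement in sign and size follows largely from that.

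Whole lung gave the same genotype contrast in a fit of 15 arrays, in which 779 of 16096 probes were called. Of 497 probes called in perfusate and measured there, 55 were called with the same sign, 16 with the opposite sign and 426 were not called. In a fit of both tissues, the difference between the tissues' contrasts was called for 662 of 15370 probes (4.31%), of which 110 had been called in perfusate. That fit holds the same perfusate arrays that gave the perfusate calls, so this overlap follows in part from the calling. Hp and Bmp4 had lung differences of -0.08 ± 0.19 and -0.28 ± 0.19 and neither was called there, and the tissues differed by -2.45 ± 0.26 (adjusted p = 2.08e-07) and -1.79 ± 0.30 (adjusted p = 0.000199). Sftpa1 was higher in lung, by 0.90 ± 0.21 (adjusted p = 0.025), and its perfusate minus lung difference was -3.45. Cxcl1 likewise fell in perfusate and was higher in lung, by 3.42 ± 0.43 (adjusted p = 0.00079), with -5.87 between the tissues. Tyrobp was higher in lung by 1.74 ± 0.24, and Myl4 and Tnnt2 were lower there at -1.52 ± 0.34 and -1.22 ± 0.25, each opposite to perfusate and called. Between the tissues these 3 differed by -2.41 ± 0.25, 2.69 ± 0.41 and 2.60 ± 0.41 (adjusted p = 1.43e-07, 5.98e-05 and 0.000109). Atp2a1, Nadsyn1 and Slc26a4 rose in both, with lung differences of 4.99 ± 0.39, 5.76 ± 0.40 and 6.82 ± 0.83, and Pon1, Hpgd and Cckar fell in both, at -3.57 ± 0.22, -1.94 ± 0.36 and -1.28 ± 0.26 in lung. Each tissue had its own reference, so these are differences and not levels.

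**Figure D4:**
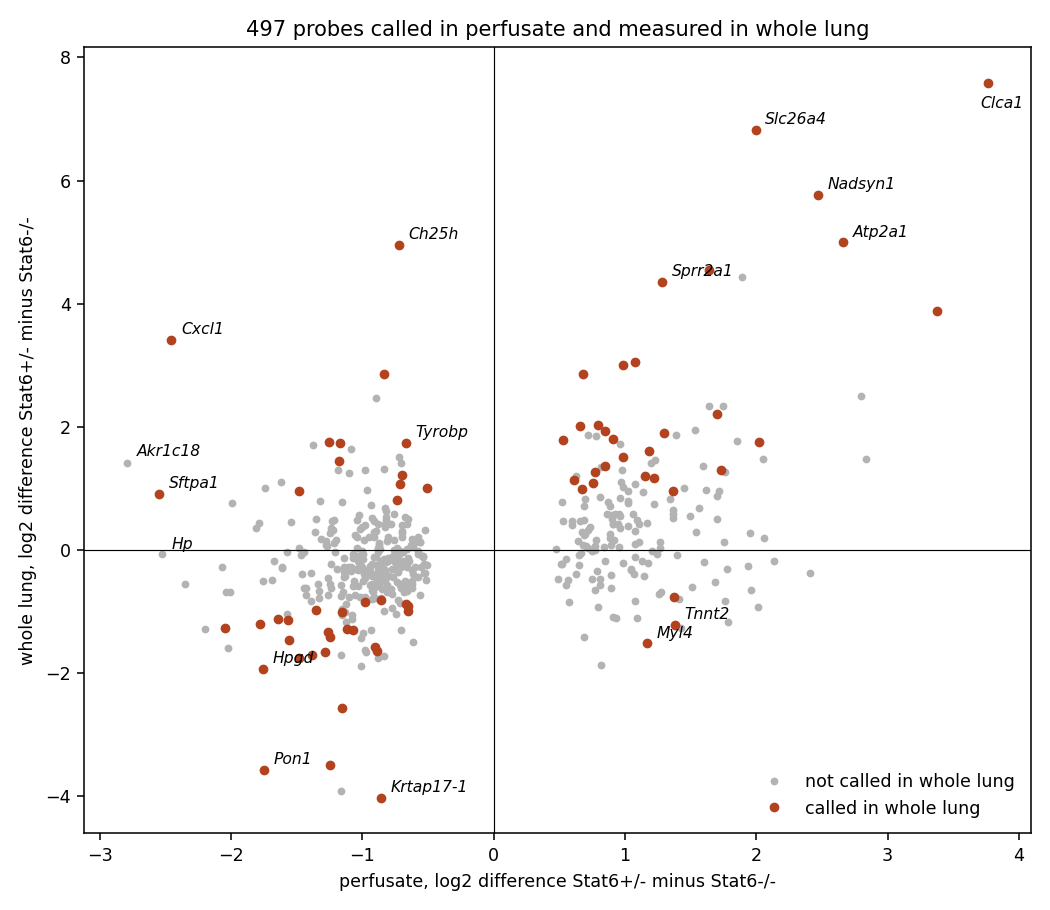
Log2 difference Stat6+/- minus Stat6-/- in perfusate (horizontal) and in whole lung (vertical) of the 497 probes called in perfusate and measured in both, with those also called in whole lung in red. Slc26a4, Nadsyn1 and Atp2a1 lie high in both, Cxcl1, Ch25h and Sftpa1 are lower in perfusate and higher in lung, and Hp lies at the lung zero line.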

How the data were processed

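RNA of tracheal perfusate was amplified and hybridised against a reference on 2-colour arrays, per the labels. The authors deposited log2 ratios per spot, with the scanner, background correction, normalization and direction not given in the sources used here; each value was the log2 of a ratio of 3 decimals. Array medians differed, from -0.72 to -0.05, so each array was centred on its own median. Spots of 1 accession were averaged (19152 spots, 18272 probes), and probes were named by the platform annotation, with current symbols taken by gene identifier (15418 spots had 1 symbol, 7 several and 3727 were not listed). In the lists, families and cell type markers, a gene with several accessions was represented by the one with most values. In the promoter counts it was represented by the one with the smallest p. The largest rises and falls were taken over called probes, whichever accession of the gene they were. limma 3.58.1 in R 4.3.3 was fitted to the 25 perfusate arrays with reference preparation as a fixed block, since each served 1 array of every group and preparation carried 45.0% of the within-group variance on 20% of the degrees of freedom. Perfusate groups share no replicate numbers, so preparation was the only pairing. A probe needed a value on 3 arrays of every group. Whole lung was fitted on its own 15 arrays, and the tissue difference as an interaction over 40 arrays. The fit was tested on simulated data.

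The genes compared and the lists were chosen with earlier results of these data known. Named were the 15 largest rises and 15 largest falls with a value on all 10 arrays outside the mucous and xenobiotic lists, each called list member, up to 4 first members of a list that were not called, Stat6, Il13 and the sex-linked genes, and the 10 largest tissue differences. Alternatives changed the centring, scaling, block, filter, variance model and arrays.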

Additional observations from a re-analysis of the deposited data

Results flagged for a closer look

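In a group of 5 arrays, an array was marked when its gap to the nearest other one was large for the group's whole range, which chance does in about 1 of 20 groups. Both groups of every named gene were screened, 105 of these genes being called, and chance at that rate would give at least as many marks. Over the named genes this marked Izumo1r on Stat6+/- replicate 6 (3.88, with the next array at 1.36), 2210407C18Rik on Stat6-/- replicate 10 (-3.58, next -1.92), Kcnk2 on Stat6-/- replicate 10 (-1.24, next 0.51), Hpgds on Stat6-/- replicate 13 (1.23, next -0.03) and Tyrobp on Stat6+/- replicate 7 (0.0357, next -0.54). Izumo1r and 2210407C18Rik also lost their calls without the marked array. This was not particular to that array, since they lost them with 7 and 6 of the 10 single arrays.

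By an interaction term, the genotype difference differed between perfusate and whole lung for 110 of the probes called in perfusate. The term uses the same perfusate arrays that gave those calls, so the count is not independent of them. The 10 named genes with the largest tissue difference are given here, and they were picked by that size. Perfusate minus lung was -3.29 for Nadsyn1, -4.83 for Slc26a4, -3.82 for Clca1 and -3.07 for Sprr2a1, all of which rose in both tissues and by more in lung. It was -4.19 for Akr1c18, -3.45 for Sftpa1, -5.87 for Cxcl1, -5.67 for Ch25h and -3.36 for Aadac, which fell in perfusate and had positive differences in lung. Of these 5, Sftpa1, Cxcl1 and Ch25h (4.95 ± 0.52) were called in lung, and Akr1c18 (1.40 ± 0.72) and Aadac (2.46 ± 1.35) were not. Krtap17-1, a keratin-associated protein, fell in both and by more in lung, with a difference of 3.17. Aadac, an arylacetamide deacetylase, was not called when each tissue was given a spread of its own (adjusted p = 0.30). With the low Y-linked arrays left out, the perfusate falls of Aadac (adjusted p = 0.295) and Krtap17-1 (0.071) were not called.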

How the results depend on the processing

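The count of 529 called probes depended on the fit. It was 128 (58 higher, 70 lower) without centring, which shifts the median difference by 0.12, 270 without the preparation block, 989 with array weights, 163 with the low Y-linked arrays as a covariate, 183 without them, 69 when just the 2 groups were fitted with the preparation block and 35 when fitted without it. Leaving out preparation 1.1, 1.4 or 1.5 gave 332, 343 and 164. Leaving out single arrays gave 347 (without Stat6+/- replicate 8) to 539. Scaling (496), quantile normalization (572), the filters (517 and 580), a random block (597) and a robust fit (522) stayed within 1.5 times. The tissue difference of 662 (192 higher, 470 lower) became 373 (270 higher, 103 lower) without centring, so the share of higher calls went from 29.0% to 72.4%. It was 305 with scaling, 374 with quantile normalization, 350 without a block, 236 with the low Y-linked covariate, 229 without those arrays, and 402 and 388 without preparations 1.2 and 1.5. Single arrays left out gave 502 to 919, the replicate block for whole lung numbers 788, and a spread of its own for each tissue, an alternative chosen after seeing the data, 474. Of the named genes' alternatives 2387 kept direction and call, 774 kept the direction but not the call, and 1 reversed, Stat6 at 0.0177 without centring. The causes of these changes were not tested, and some of the fits also held fewer arrays. A count of 5 arrays a group limits precision, and signal over background is not known here.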

Other observations

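Members of gene families were counted after the values had been seen, and these counts support nothing further. Of all probes 1.11% rose and 2.02% fell. Of 12 measured sulfotransferases of the Sult family, which attach sulfate to hormones and foreign compounds, 11 had a negative difference, 4 fell and none rose, with a median of -0.76. Of 9 small proline-rich proteins, parts of the cornified envelope, 2 rose (Sprr2a1 and Sprr2k) and none fell, with a median of 0.48. Of 37 keratins 2 rose, Krt6a and Krt79, and 24 had a positive difference. Of 12 clade B serpins 2 rose, Serpinb11 and Serpinb12, with a median of 0.01. Of 32 keratin-associated proteins 2 fell, and of 26 olfactory receptors 2 rose and 1 fell. With the low Y-linked arrays left out, Sult1a1 (adjusted p = 0.035), Sult1c1 (0.0281) and Serpinb12 (0.00345) stayed called, and the other named members of these families, with Sprr2k at 0.0972 and Krt79 at 0.382, did not.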
